A study of Mus musculus with 64 samples.

Results

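The 40 genes described here encode growth factors, receptors, transcription factors and surface or secreted proteins of endothelial cells and of blood vessel growth in the mouse heart. They were chosen by name as an endothelial and angiogenesis list, with no measured value in the rule, and all 40 were found among the 16913 genes of the table and passed the filter on low counts. Hearts of C57BL/6J mice were profiled by bulk RNA sequencing in 64 libraries. Transgenic mice (TG) carried the delta160E form of cardiac troponin T (cTnT-delta160E), which models hypertrophic cardiomyopathy, and their non-transgenic counterparts (nTG) did not. In each genotype, males (M) and females (F) either stayed sedentary or did high intensity interval training (HIIT) on a treadmill for 6 weeks. Training took place 3 times a week in sessions of 31 minutes, with 4 intervals at 85% and 4 at 50% of the mean speed that the group reached in an exercise test. By the labels there were 7 sedentary and 8 trained nTG males, 9 sedentary and 8 trained TG males, 8 sedentary and 10 trained nTG females, and 8 sedentary and 6 trained TG females. The labels give neither the promoter of the transgene nor the age of the mice. They number the libraries as biological replicates.

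Endothelial cells line the capillaries that run between cardiomyocytes, and they carry a lineage program kept by ETS and SOX family transcription factors. Vascular endothelial growth factors act through Flt1, Kdr and Flt4, while angiopoietins, made in part by cells around the vessel, act through the receptor Tek to keep vessels quiet and tight. Notch and BMP receptors restrain sprouting, and growth of capillaries is a known response of striated muscle to endurance exercise.

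Library totals ranged from 34574813 to 67068562 counts. Gene columns by their own names contradicted the labelled sex or genotype in 45 of 64 libraries, so each gene column was first joined to the lncRNA column with which it correlated best (r 0.599 to 0.863, with no next-best r above 0.404). In the joined columns 0 of 64 libraries contradicted sex or genotype, which took no part in the joining. Tnnt2, the gene of the transgene product, then lay between 2665 and 3428 CPM (counts scaled to a common library size) in nTG and between 6903 and 12001 CPM in TG libraries, where native and transgene reads cannot be told apart. No gene of the table checks the labelled training status. As a check of the tissue, the summed level of 10 cardiomyocyte genes lay between 122966 and 156718 CPM. Sedentary TG male replicate 5 stood apart by its blood genes, which summed to 4629 CPM against at most 1177 CPM in every other library. Trained TG male replicate 4 had the lowest share of mitochondrial counts of its group (14.4%, the others 16.3% to 18.7%) and the highest TMM scaling factor of the 64 libraries (1.09). For training in TG males and genotype in sedentary males, calls of members and counts of list genes are given with and without sedentary TG male replicate 5 where that changes them.

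Per exon length (RPKM, CPM per kilobase of exon), the median level over the 64 libraries ran from 1.02 for Angpt2 to 136 for Vegfb. After Vegfb came the hypoxia-regulated transcription factor Epas1 (113 RPKM) and the endothelial adherens junction cadherin Cdh5 (70.96 RPKM). Vegfa, the main ligand of Kdr, stood at 54.4 RPKM and the TGF-beta co-receptor Eng at 53.2 RPKM. At the low end were Angpt1 (2.73 RPKM), Thsd1 (2.10 RPKM), the lymphatic growth factor Vegfc (1.88 RPKM) and Angpt2, the antagonist of Angpt1 at Tek. The lowest count of any member in any library was 105, for Angpt2, so no member was near the limit of detection. The spread between mice of a group also differed between members: the SD of log2 CPM within groups was 0.065 for Pecam1, the platelet endothelial adhesion molecule, and 0.416 for Aplnr, the apelin receptor. Angpt1 had the next highest spread, at 0.405. In these bulk hearts, fewer endothelial cells and less RNA per endothelial cell cannot be told apart.

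RefSeq, on GRCm38.p6, gave promoters for 23 of the 40 members. Of the 10 genes whose values per group are given by rule, 5 had one, and these are shown to give the sequence next to the start of genes that changed. The sequences are the 250 bases before the RefSeq start on the strand of the gene, with GGAAG or its reverse complement CTTCC, the ETS family core, in capitals on both strands. The bases just after that start were found in an annotated transcript of the gene for Eng, Dll4, Flt1 and Vegfb, but not for Thsd1. Eng and Thsd1 fell with training in TG males. Between genotypes, Dll4 passed the threshold as lower in sedentary TG males, Flt1 in TG mice of 3 of the 4 comparisons and Vegfb in trained TG mice of both sexes.
Eng promoter, chr2:32646345-32646594, plus strand: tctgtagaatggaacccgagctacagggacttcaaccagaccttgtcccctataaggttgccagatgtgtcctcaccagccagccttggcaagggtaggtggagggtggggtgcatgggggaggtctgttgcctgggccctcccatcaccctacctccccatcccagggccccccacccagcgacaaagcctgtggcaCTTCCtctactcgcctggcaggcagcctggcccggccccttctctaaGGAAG
Thsd1 promoter, chr8:22227053-22227302, plus strand: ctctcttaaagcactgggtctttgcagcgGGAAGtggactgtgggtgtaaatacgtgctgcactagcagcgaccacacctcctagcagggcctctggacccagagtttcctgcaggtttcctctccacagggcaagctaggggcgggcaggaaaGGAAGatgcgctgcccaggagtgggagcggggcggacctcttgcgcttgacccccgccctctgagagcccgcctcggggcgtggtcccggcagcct
Dll4 promoter, chr2:119325534-119325783, plus strand: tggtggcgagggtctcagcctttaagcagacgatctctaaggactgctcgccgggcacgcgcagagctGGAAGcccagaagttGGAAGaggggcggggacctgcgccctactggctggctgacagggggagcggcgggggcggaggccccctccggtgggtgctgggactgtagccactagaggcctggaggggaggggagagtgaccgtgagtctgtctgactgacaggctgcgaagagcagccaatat
Flt1 promoter, chr5:147726012-147726261, minus strand: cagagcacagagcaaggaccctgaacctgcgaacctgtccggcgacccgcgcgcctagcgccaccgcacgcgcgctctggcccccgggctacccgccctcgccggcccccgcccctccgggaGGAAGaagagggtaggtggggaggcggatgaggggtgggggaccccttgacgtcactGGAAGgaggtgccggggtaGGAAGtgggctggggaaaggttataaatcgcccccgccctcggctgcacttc
Vegfb promoter, chr19:6987652-6987901, minus strand: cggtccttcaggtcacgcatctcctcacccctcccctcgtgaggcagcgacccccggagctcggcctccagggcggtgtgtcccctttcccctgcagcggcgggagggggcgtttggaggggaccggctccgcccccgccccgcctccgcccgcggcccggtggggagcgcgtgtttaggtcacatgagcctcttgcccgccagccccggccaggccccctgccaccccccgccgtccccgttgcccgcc
Eng, Thsd1 and Dll4 held 2 matches each, Flt1 held 3 and Vegfb held 0. In all, 19 of 28 member promoters (67.9%) held a match, against 64.1% of all 32851 promoters of that length. A match is a description of letters and no evidence of binding.

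**Figure D1:**
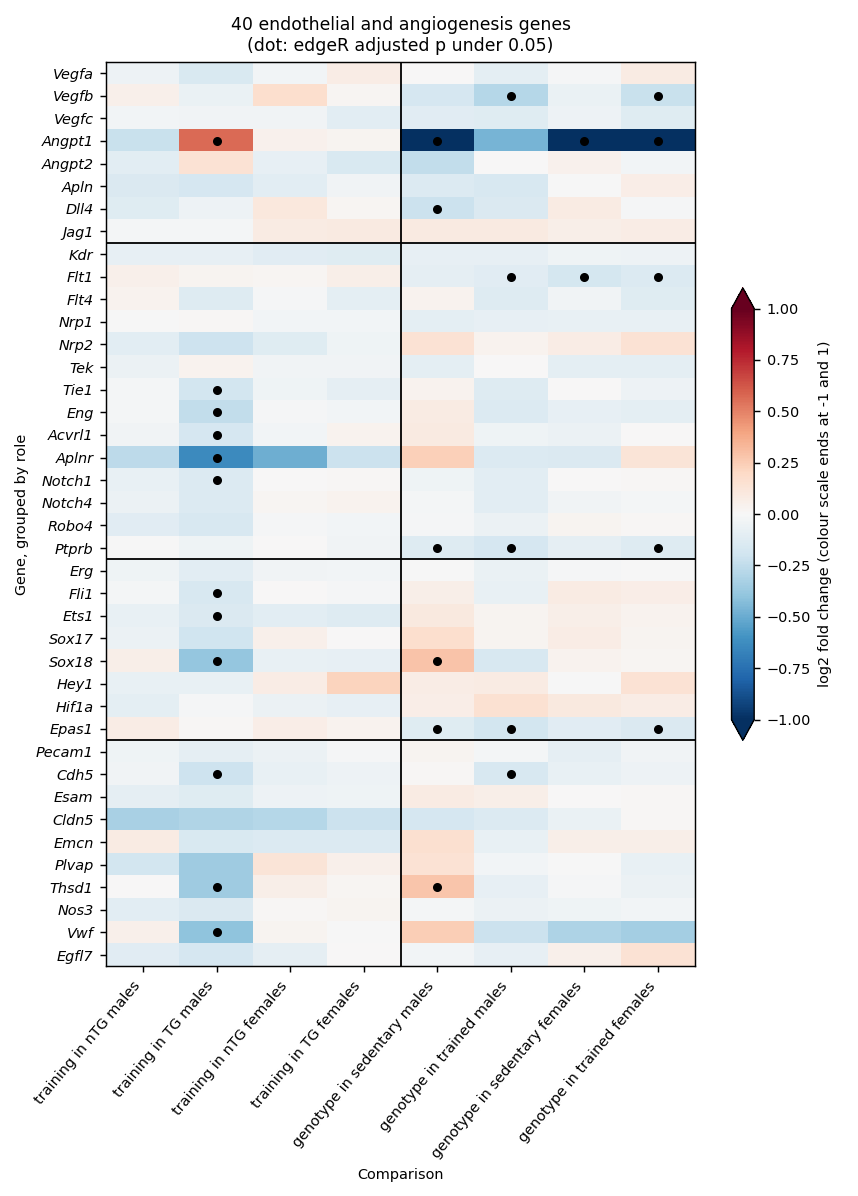
Log2 fold changes of the 40 genes (rows, grouped by role, upper to lower: ligands, receptors, transcription factors, junction, surface and secreted proteins) in the 4 training and 4 genotype comparisons (columns); a dot marks an edgeR adjusted p under 0.05. Dots in the training columns appear only for TG males, 12 in all, and Angpt1 (log2 fold change -1.26 in sedentary males) has the darkest blue cells in the genotype columns.

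With training in TG males, 11 of the 40 genes fell and 1 rose. Receptors of endothelial signalling (Eng, Aplnr, Tie1, Acvrl1, Notch1), the lineage transcription factors Sox18, Fli1 and Ets1, and the surface or secreted proteins Cdh5, Thsd1 and Vwf were lower in trained than in sedentary TG males, by 9.06% to 35.7%. The growth factor Angpt1 was 48.2% higher. Of all 16913 genes, 18.0% passed the threshold (edgeR's quasi-likelihood test, Benjamini-Hochberg adjusted p under 0.05), 7.60% as lower and 10.3% as higher. The median log2 fold change was -0.14 for the members and 0.00 for all genes, and 34 of 40 members were below 0 against 50.0% of all genes. At an unadjusted p under 0.05 there were 22 members and 31.9% of all genes.

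Among the 14 receptors and co-receptors, 5 fell and 0 rose. Eng, the co-receptor for BMP9 whose loss causes vascular malformations (ENSMUSG00000026814, chr2:32646595-32682669, plus strand), ranged from 193 to 249.8 CPM (median 225) in sedentary TG males. It ranged from 161 to 214 CPM (median 197) in trained TG males. The groups overlapped, with the trained animals reaching lower, and Eng fell by 15.6% (log2 fold change -0.25, SE 0.06, adjusted p = 0.0035). Acvrl1, the receptor that binds BMP9 with Eng, fell by 0.17 on the log2 scale (SE 0.06, adjusted p = 0.026). The orphan receptor Tie1, a partner of Tek, fell by 0.18 (SE 0.06, adjusted p = 0.024) and Notch1 fell by 0.14 (SE 0.05, adjusted p = 0.035). Aplnr had the largest fall: its level ranged from 41.03 to 64.9 CPM (median 50.7) in sedentary and from 19.1 to 47.9 CPM (median 34.3) in trained TG males. The ranges overlapped between 41.0 and 47.9 CPM, and Aplnr fell by 35.7% (log2 fold change -0.64, SE 0.19, adjusted p = 0.015). The other 9 receptors, Kdr, Flt1, Flt4, Nrp1, Nrp2, Tek, Notch4, Robo4 and Ptprb, did not pass the threshold.

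Of the 10 junction, surface and secreted proteins, 3 fell and 0 rose. Thsd1, a thrombospondin-domain membrane protein of endothelial cells (ENSMUSG00000031480, chr8:22227313-22261334, plus strand), ranged from 8.64 to 12.8 CPM (median 10.99) in sedentary TG males. In trained TG males it ranged from 7.91 to 9.27 CPM (median 8.59), so that 1 sedentary animal of 9 reached into the trained range. It fell by 21.7% (log2 fold change -0.35, SE 0.06, adjusted p = 0.00098), the smallest p of any member in this comparison. Cdh5, or VE-cadherin (ENSMUSG00000031871, chr8:104101625-104144511, plus strand), ranged from 302 to 331 CPM (median 322) in sedentary and from 241 to 298 CPM (median 279.9) in trained TG males. All 8 trained animals lay below all 9 sedentary ones, and Cdh5 fell by 13.4% (log2 fold change -0.21, SE 0.05, adjusted p = 0.0022). Such a lack of overlap was seen for 2 of 40 members, Cdh5 and Sox18, against 1.09% of all genes. Vwf, the clotting factor stored in endothelial granules, fell by 0.41 (SE 0.15, adjusted p = 0.046), and without sedentary TG male replicate 5 its adjusted p was 0.16. Pecam1, shown for its role as the general endothelial marker, ranged from 150.4 to 170.5 CPM (median 163) in sedentary and from 141 to 161 CPM (median 153) in trained TG males and did not pass the threshold (log2 fold change -0.09, SE 0.03, adjusted p = 0.054). Esam, Cldn5, Emcn, Plvap, Nos3 and Egfl7 did not pass it either.

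Of the 8 transcription factors, 3 fell and 0 rose. Sox18, a SOX family factor of developing arteries and lymphatics (ENSMUSG00000046470, chr2:181669836-181671640, minus strand), ranged from 66.4 to 89.04 CPM (median 73.6) in sedentary TG males. In trained TG males it ranged from 43.1 to 65.9 CPM (median 60.3), and no trained animal reached the lowest sedentary one. Sox18 fell by 23.7% (log2 fold change -0.39, SE 0.10, adjusted p = 0.0064). The ETS factors Fli1 (log2 fold change -0.16, SE 0.04, adjusted p = 0.0089) and Ets1 (log2 fold change -0.14, SE 0.05, adjusted p = 0.036) fell by less. Erg, the ETS factor most restricted to endothelium, had a log2 fold change of -0.11 (SE 0.06, adjusted p = 0.2), and Sox17, Hey1, Hif1a and Epas1 did not pass the threshold.

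Of the 8 ligands, 1 rose and 0 fell. Angpt1, the agonist of Tek (ENSMUSG00000022309, chr15:42424723-42676977, minus strand), ranged from 5.91 to 12.2 CPM (median 8.45) in sedentary and from 8.92 to 15.8 CPM (median 12.8) in trained TG males. The groups overlapped, and Angpt1 rose by 48.2% (log2 fold change 0.57, SE 0.20, adjusted p = 0.036). Vegfa, shown for its role, ranged from 202 to 315 CPM (median 234) in sedentary and from 184 to 250.05 CPM (median 223) in trained TG males (log2 fold change -0.15, SE 0.08, adjusted p = 0.18). The groups lay over each other, as did those of Apln, the ligand of Aplnr, which ranged from 12.2 to 23.1 CPM (median 18.1) in sedentary and from 12.2 to 20.6 CPM (median 17.01) in trained TG males (log2 fold change -0.17, SE 0.13, adjusted p = 0.39). Vegfb, Vegfc, Angpt2, Dll4 and Jag1 did not pass the threshold.

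**Figure D2:**
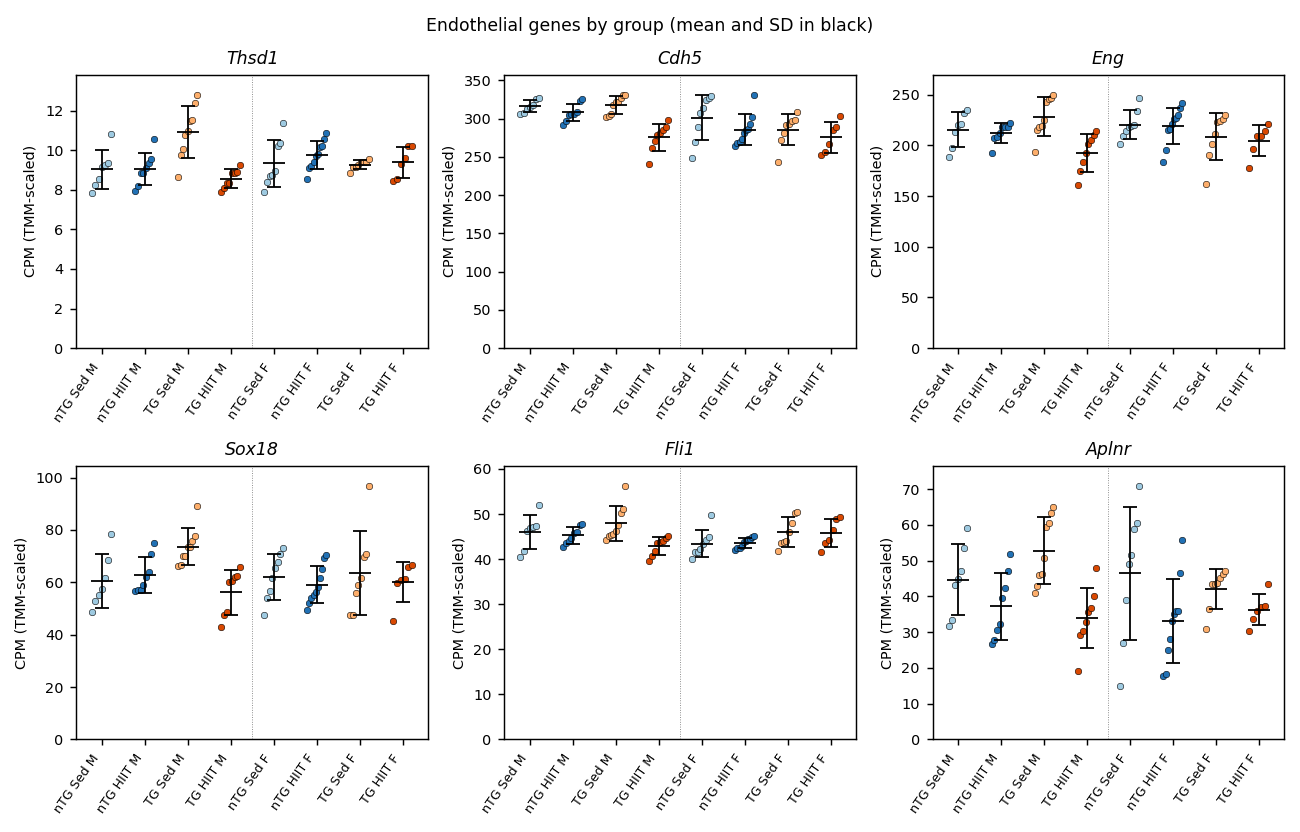
Level of 6 genes that fell with training in TG males (vertical axes, CPM with TMM-scaled library sizes, from 0) in each library of the 8 groups (horizontal axes), with mean and SD in black; points are spread sideways in order of value. For Cdh5 the trained TG males, at 241 to 298 CPM, lie below all sedentary TG males, and the same holds for Sox18, while the other pairs of sedentary and trained groups overlap for every gene shown.

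Of 109 other genes of the same pathways, in 4 lists, 29 fell and 3 rose with training in TG males, beside 7.60% and 10.3% of all genes, and 77 did not pass. The transcription factor list had 8 of 21 lower, the Notch, BMP and angiopoietin list 8 of 28, the surface and junction list 8 of 30, and the list of VEGF, hypoxia and flow signalling 5 of 30. The falls with the smallest p were Lyl1, a basic helix-loop-helix factor of blood and endothelium (log2 fold change -0.49, SE 0.10, adjusted p = 0.0018), and Ephb4, the venous receptor of ephrin-B2 (log2 fold change -0.19, SE 0.05, adjusted p = 0.003). The rises were Mef2c, a factor of muscle and endothelium (log2 fold change 0.15, SE 0.05, adjusted p = 0.021), Smad5 (0.10) and Bmpr2 (0.10), both of BMP signalling. Without sedentary TG male replicate 5, 24 of the 109 were lower and 1 higher, beside 1100 and 1285 of all 16913 genes. In that fit 6 of the 21 transcription factors, 7 of the 28 Notch, BMP and angiopoietin genes and 6 of the 30 surface and junction genes were lower. The VEGF, hypoxia and flow list kept 5. The Notch, BMP and angiopoietin list had 0 higher, so Smad5 and Bmpr2 were no longer called. The median of all 109 was -0.14.

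Markers of cell classes moved beside these genes. Of 12 capillary endothelial markers, 2 rose (Cd36, log2 fold change 0.31, and Timp4, 0.86) and 0 fell. As a list they did not move to 1 side, with 6 below and 6 above 0 and a median log2 fold change of 0.01. Their summed level, in which abundant genes weigh most, ranged from 1091 to 1272 CPM (median 1220.0) in sedentary TG males. In trained TG males it ranged from 1217 to 1451 CPM (median 1391). Mural cell markers, of the pericytes and smooth muscle cells around vessels, had 4 of 11 lower (Pdgfrb, Cspg4, Notch3 and Vtn), with sums from 1452 to 1823 CPM (median 1557) and from 1454 to 1770.5 CPM (median 1689). Macrophage markers had 5 of 10 lower, and their sum ranged from 248 to 417 CPM (median 345) in sedentary and from 234 to 406 CPM (median 272) in trained TG males. Other endothelial lists had 0 higher: tip cell genes had 2 of 6 lower, venous genes 1 of 5, endocardial genes 1 of 6, and arterial and lymphatic genes 0 of 9 and 0 of 6. Blood genes had 6 of 8 lower, fibroblast markers 2 of 10 lower, and cardiomyocyte markers 2 of 10 higher. Without sedentary TG male replicate 5, blood genes had 3 of 8 lower, mural markers 3 of 11, fibroblast markers 1 of 10 and macrophage markers 5 of 10, and cardiomyocyte markers had 1 of 10 higher. The 5 other endothelial lists and the capillary list kept their counts without it. None of the 8 proliferation genes passed the threshold. The part of these cell classes in the endothelial result was not tested.

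Without sedentary TG male replicate 5, the library high in blood genes, 12 members passed, 0 higher and 12 lower. Of all 16913 genes, 1285 were then higher and 1100 lower. Angpt1 had an adjusted p of 0.054 in that fit. Leaving out 1 library at a time gave 7 members without trained TG male replicate 2 or 7 or sedentary TG male replicate 6, and 19 without trained TG male replicate 4, the library with the low mitochondrial share; the 19 included all 12. The median mitochondrial share was 16.5% in sedentary and 17.6% in trained TG males, and its part in the result was not tested. Calls of Thsd1, Cdh5, Eng, Sox18, Fli1 and Aplnr held in all 17 fits with 1 library left out, that of Tie1 in 15, those of Acvrl1 and Notch1 in 13 each and that of Ets1 in 12. The call of Angpt1 held in 8 of 17 and that of Vwf in 4 of 17. DESeq2 and limma voom each kept the 12 calls of the main fit and called 17 members, 16 of them lower. Their shares of all genes called are not given here, so the 17 is not set against a background. In a fit of the TG males alone, Acvrl1 and Notch1 missed the threshold (adjusted p = 0.051 for both).

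In nTG males, 0 of 40 members passed the threshold, as did 0 of all genes, and DESeq2 and limma voom also called 0. At an unadjusted edgeR p under 0.05 there were 0 members against 5.91% of all genes. Cldn5, a tight junction protein, ranged from 17.8 to 29.4 CPM (median 27.1) in sedentary and from 14.6 to 25.1 CPM (median 20.5) in trained nTG males. The groups overlapped (log2 fold change -0.33, SE 0.17, p = 0.055, adjusted p = 0.84). Esam, a junction molecule of the same family of surface proteins as the JAMs, had the next smallest p (log2 fold change -0.09, SE 0.05, p = 0.066).

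In nTG females, training changed 0 members past the threshold, against 0.148% of all genes, with 0 by DESeq2 and limma voom and 5 at an unadjusted edgeR p under 0.05 (14.2% of all genes). Aplnr had the smallest p. It ranged from 14.9 to 70.9 CPM (median 50.3) in sedentary and from 17.7 to 55.7 CPM (median 34.2) in trained nTG females, and the trained range lay inside the sedentary one (log2 fold change -0.49, SE 0.18, p = 0.0097, adjusted p = 0.2). Vegfb, a ligand of Flt1 made by cardiomyocytes, ranged from 189 to 247 CPM (median 218) and from 216 to 260.04 CPM (median 243) (log2 fold change 0.17, SE 0.07, p = 0.02, adjusted p = 0.26).

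In TG females, 0 members passed by edgeR, DESeq2 or limma voom, as did 0 of all genes by edgeR, and 2 members had an unadjusted edgeR p under 0.05 (3.58% of all genes). These were Ets1, which ranged from 95.6 to 112 CPM (median 102) in sedentary and from 89.7 to 98.1 CPM (median 94.2) in trained TG females (log2 fold change -0.13, SE 0.06, p = 0.024, adjusted p = 1), and the Notch target Hey1, which ranged from 8.24 to 12.1 CPM (median 10.1) and from 8.53 to 15.996 CPM (median 10.95) (log2 fold change 0.23, SE 0.11, p = 0.041, adjusted p = 1). Both pairs of groups overlapped. Of the other 10 genes that fell in TG males, Aplnr had a log2 fold change of -0.21 (SE 0.21) in TG females, Tie1 -0.09 (SE 0.07), Sox18 -0.08 (SE 0.11), Cdh5 -0.05 (SE 0.05) and Eng -0.03 (SE 0.06). The values of Fli1 (-0.01), Vwf (-0.01), Notch1 (0.01), Thsd1 (0.02) and Acvrl1 (0.04) lay within 1 SE of 0. Cldn5 and Aplnr were below 0 in all 4 training comparisons, as were other members, among them Kdr, Pecam1 and Apln. The values ran from -0.33 to -0.21 for Cldn5 and from -0.64 to -0.21 for Aplnr, with 1 of these 8 values past the threshold.

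Kdr, the main signalling receptor of Vegfa and shown for its role, passed in none of the 4 training and 4 genotype comparisons. In males it ranged from 324 to 399 CPM (median 372) in sedentary and from 297 to 391 CPM (median 341) in trained nTG mice, and from 309 to 379 CPM (median 347) and from 276 to 370.1 CPM (median 335) in TG mice. In females it ranged from 272 to 373 CPM (median 344) in sedentary and from 263 to 357 CPM (median 315) in trained nTG mice, and from 313 to 347 CPM (median 319) and from 273 to 327 CPM (median 297) in TG mice. The groups overlapped throughout, and all 4 training values were below 0, from -0.12 (SE 0.06) in TG females to -0.08 (SE 0.06) in TG males. Vegfa had training values of -0.05 (SE 0.09) in nTG males, -0.02 (SE 0.08) in nTG females and 0.07 (SE 0.09) in TG females. Those of Pecam1 lay between -0.09 and -0.01 over the 4 comparisons, and those of Apln between -0.17 and -0.03. No ligand or receptor of the VEGF group passed as higher with training in any of the 4.

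Whether training acted differently by genotype or sex was tested directly. The genotype by training difference in males passed for 0 members and 0 genes with edgeR, and for 0 members with DESeq2 and limma voom. Its unadjusted p was under 0.05 for 8 members (14.8% of all genes), led by Thsd1 (log2 fold change -0.36, SE 0.09, p = 0.00034, adjusted p = 0.13) and Sox18 (log2 fold change -0.45, SE 0.15, p = 0.0037, adjusted p = 0.18). In females it passed for 0 members with each of these tools, with 0 members at an unadjusted p under 0.05 (6.46% of all genes). The training effect in TG females minus that in TG males passed for 0 members and 0 genes with edgeR and for 1 member each with DESeq2 and limma voom. At an unadjusted p, 9 members passed against 18.1% of all genes. Thsd1 led them (log2 fold change 0.37, SE 0.10, p = 0.00028, adjusted p = 0.082), followed by Eng (log2 fold change 0.22, SE 0.09, p = 0.015, adjusted p = 0.17). A difference between the sexes in the training response was thus not shown by edgeR at its threshold.

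Averaged over the sexes, training in TG mice changed 0 members with edgeR (0.520% of all genes), 6 with DESeq2 and 8 with limma voom, all lower. The unadjusted p was under 0.05 for 15 members (19.2% of all genes). Cdh5 (log2 fold change -0.13, SE 0.03, p = 0.00032, adjusted p = 0.055) and Ets1 (log2 fold change -0.14, SE 0.04, p = 0.00054, adjusted p = 0.066) had the smallest. Without trained TG male replicate 4 or sedentary TG female replicate 7, edgeR called 8 members. In nTG mice the mean over sexes passed for 0 members with edgeR (0.384% of all genes), DESeq2 and limma voom, and 9 members had an unadjusted p under 0.05 (12.7% of all genes). Aplnr (log2 fold change -0.37, SE 0.13, p = 0.0073, adjusted p = 0.2) and Cldn5 (log2 fold change -0.31, SE 0.11, p = 0.009, adjusted p = 0.21) led.

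The transgene was accompanied by less Angpt1, and by small reductions of Flt1, Ptprb, Epas1 and Vegfb, while Pecam1, Kdr and Vegfa did not pass the threshold in any of the 4 genotype comparisons. Among the 40 members, 2 were higher and 4 lower in sedentary TG males than in sedentary nTG males, where 20.6% of all genes passed, 9.39% as higher and 11.2% as lower. Trained males had 0 higher and 5 lower, beside 14.0% of all genes (5.65% higher, 8.31% lower). Sedentary females had 0 higher and 2 lower, beside 4.37% (1.58% and 2.78%), and for trained females the counts were 0 and 5, beside 14.8% (5.37% and 9.43%). The members' median log2 fold changes were 0.01, -0.08, -0.01 and -0.01 in that order, and those of all genes lay between -0.01 and 0.01. The share of members called was below or near that of all genes in each of the 4.

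Angpt1 ranged from 14.8 to 38.6 CPM (median 17.7) in sedentary nTG males and from 5.91 to 12.2 CPM (median 8.45) in sedentary TG males. No TG animal reached the lowest nTG animal, a pattern of 1 of 40 members against 2.10% of all genes, and Angpt1 fell by 58.1% (log2 fold change -1.26, SE 0.20, adjusted p = 5.3e-06). In trained males it ranged from 7.21 to 26.4 CPM (median 16.2) in nTG and from 8.92 to 15.8 CPM (median 12.8) in TG mice. These groups overlapped, and the difference did not pass (log2 fold change -0.46, SE 0.20, adjusted p = 0.11). In sedentary females it ranged from 12.02 to 32.3 CPM (median 25.98) in nTG and from 7.25 to 13.7 CPM (median 12.5) in TG mice, and 4 of 8 TG animals lay above the lowest nTG one (log2 fold change -1.10, SE 0.20, adjusted p = 0.00018). In trained females it ranged from 13.04 to 42.3 CPM (median 24.2) in nTG and from 9.05 to 14.1 CPM (median 11.99) in TG mice, where 2 TG animals reached the lowest nTG one (log2 fold change -1.11, SE 0.21, adjusted p = 0.00015). The 3 calls held in all 16 fits of each comparison that left out 1 library. One sedentary nTG male, replicate 4, was far above its group at 38.6 CPM. The fall in sedentary males and the rise with training in TG males share the sedentary TG males. The genotype by training difference for Angpt1 in males did not pass (log2 fold change 0.79, SE 0.28, p = 0.0066, adjusted p = 0.2).

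Flt1, a VEGF receptor that also acts as a decoy (ENSMUSG00000029648, chr5:147561604-147726011, minus strand), ranged from 175 to 209.96 CPM (median 196) in sedentary nTG females and from 162 to 195 CPM (median 169) in sedentary TG females. The TG group lay lower with overlap, and Flt1 was lower in TG mice (log2 fold change -0.18, SE 0.04, adjusted p = 0.0028). The same direction passed in trained females, where Flt1 ranged from 178 to 213 CPM (median 202) in nTG and from 171 to 195 CPM (median 179) in TG mice (log2 fold change -0.14, SE 0.04, adjusted p = 0.016). In trained males, with 199 to 215 CPM (median 207) in nTG and 177 to 209 CPM (median 193) in TG mice, it passed narrowly (log2 fold change -0.11, SE 0.04, adjusted p = 0.047), and the call held in 6 of 16 fits with 1 library left out. That in trained females was lost without trained TG female replicate 4 or 5. In fits of only the groups compared, Flt1 missed the threshold in sedentary females (adjusted p = 0.062), trained females (0.051) and trained males (0.075).

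Ptprb, the endothelial phosphatase VE-PTP that acts on Tek and Cdh5 (ENSMUSG00000020154, chr10:116275523-116389535, plus strand), ranged from 264 to 311 CPM (median 299) in trained nTG males and from 231 to 283 CPM (median 261) in trained TG males. The groups overlapped in part, and Ptprb was lower in TG mice (log2 fold change -0.17, SE 0.04, adjusted p = 0.0011). It was also lower in sedentary males (log2 fold change -0.13, SE 0.04, adjusted p = 0.012) and in trained females (log2 fold change -0.13, SE 0.04, adjusted p = 0.02). The first of these calls was lost without sedentary TG male replicate 6 (adjusted p = 0.053) or with only the sedentary male groups fitted (0.051), and the second without trained TG female replicate 1 or 4 (adjusted p 0.062 to 0.079).

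Epas1, or HIF-2 alpha (ENSMUSG00000024140, chr17:86753700-86833410, plus strand), ranged from 674 to 759 CPM (median 698) in trained nTG males and from 562 to 676 CPM (median 627) in trained TG males. Of the 8 TG animals, 7 lay below the nTG range (log2 fold change -0.19, SE 0.04, adjusted p = 0.0015). It was lower in sedentary TG males as well (log2 fold change -0.12, SE 0.04, adjusted p = 0.027) and in trained TG females (log2 fold change -0.14, SE 0.04, adjusted p = 0.02). The call in sedentary males held in 10 of 16 fits with 1 library left out, and that in trained females was lost without trained TG female replicate 3, 4 or 6 (adjusted p 0.054 to 0.082).

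Vegfb (ENSMUSG00000024962, chr19:6982473-6987651, minus strand) ranged from 219 to 262 CPM (median 236) in trained nTG males and from 152 to 226 CPM (median 196) in trained TG males. Of the 8 TG animals, 7 lay below the nTG range (log2 fold change -0.28, SE 0.08, adjusted p = 0.0065). In trained females it ranged from 216 to 260.04 CPM (median 243) in nTG and from 179 to 222 CPM (median 209) in TG mice (log2 fold change -0.23, SE 0.08, adjusted p = 0.041). That call held in 7 of 16 fits with 1 library left out. It was also lost in edgeR fits with median-of-ratios scaling (adjusted p = 0.052) or with the replicate number as a block (adjusted p = 0.12). Dll4, the Notch ligand of tip cells (ENSMUSG00000027314, chr2:119325784-119335962, plus strand), ranged from 33.4 to 42.7 CPM (median 38.9) in sedentary nTG males and from 27.4 to 39.1 CPM (median 32.2) in sedentary TG males. The groups overlapped (log2 fold change -0.21, SE 0.07, adjusted p = 0.018), and the call was lost without sedentary nTG male replicate 2 or 7 (adjusted p 0.053 to 0.057). Cdh5 was lower in trained TG than in trained nTG males (log2 fold change -0.16, SE 0.05, adjusted p = 0.013), from 292 to 326 CPM in nTG.

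**Figure D3:**
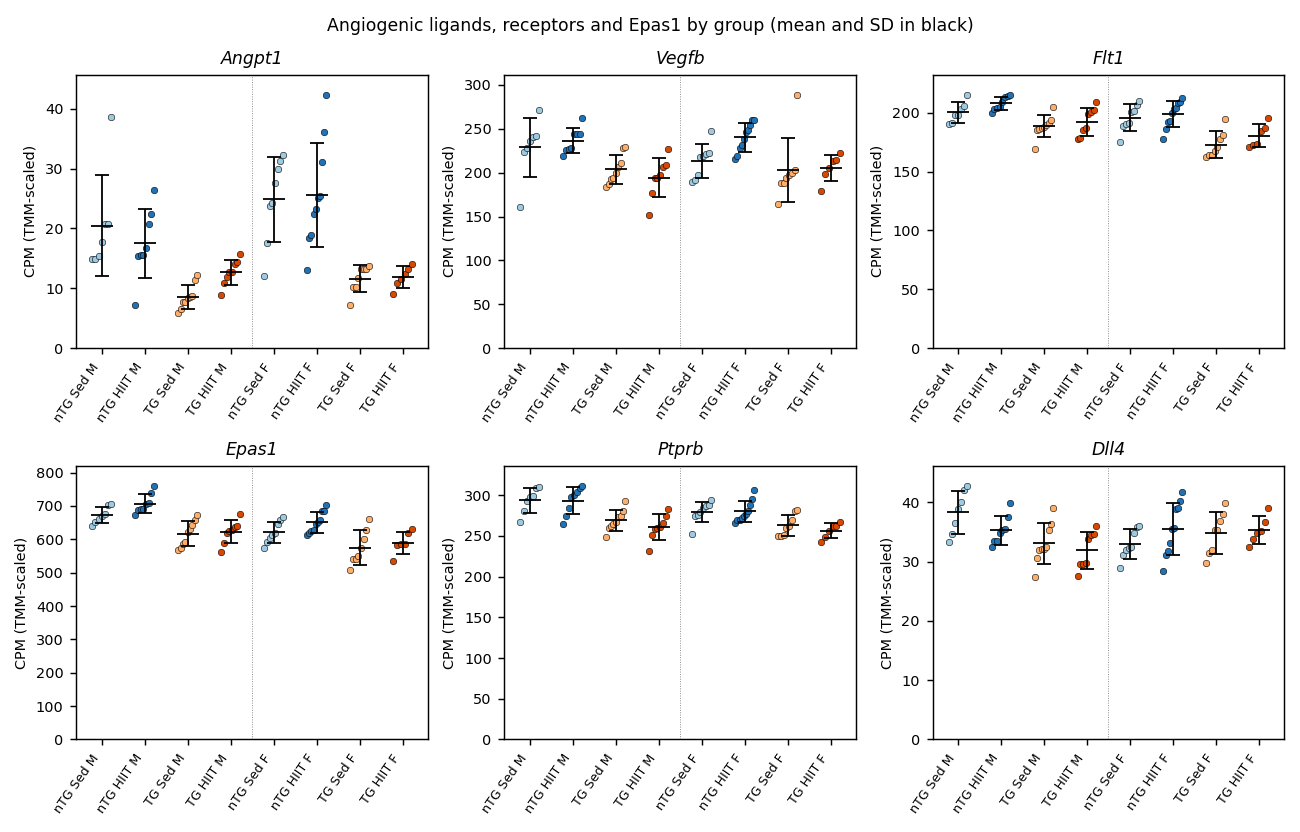
Level of 6 genes called between the genotypes (vertical axes, CPM with TMM-scaled library sizes, from 0) in each library of the 8 groups (horizontal axes), with mean and SD in black; points are spread sideways in order of value. Angpt1 lies lower in the TG groups of both sexes, with medians of 8.45 CPM in sedentary TG males and 17.7 CPM in sedentary nTG males, while the other 5 genes differ by a small part of their level.

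Thsd1 and Sox18 were higher in sedentary TG than in sedentary nTG males. Thsd1 ranged from 7.83 to 10.8 CPM (median 9.14) in sedentary nTG males, overlapping the sedentary TG males (log2 fold change 0.28, SE 0.07, adjusted p = 0.0016). Sox18 ranged from 48.7 to 78.5 CPM (median 57.4) in sedentary nTG males (log2 fold change 0.29, SE 0.11, adjusted p = 0.043), and this call held in 7 of 16 fits with 1 library left out. Both comparisons use the sedentary TG males against which the trained TG males were set. The levels of trained TG males, with medians of 8.59 CPM for Thsd1 and 60.3 CPM for Sox18, lay beside medians of 9.14 and 57.4 CPM in sedentary nTG males. Leaving out sedentary TG male replicate 6, which had the highest Sox18 level of its group, reduced the members called in sedentary males from 6 to 3. Without replicate 5, the library high in blood genes, Sox18 (adjusted p = 0.055) and Epas1 (0.089) were no longer called in this comparison, and 4 members were. Of all 16913 genes, 1431 were then higher and 1443 lower.

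As a mean over both sexes and both training states, the genotype difference passed for 11 members, 2 higher and 9 lower, against 39.0% of all genes (18.5% higher, 20.5% lower). Angpt1 fell by 49.4% (log2 fold change -0.98, SE 0.10, adjusted p = 3.8e-12). Ptprb (log2 fold change -0.13, SE 0.02, adjusted p = 1.5e-07), Epas1 (log2 fold change -0.14, SE 0.02, adjusted p = 2e-07) and Flt1 (log2 fold change -0.13, SE 0.02, adjusted p = 3.3e-07) followed. Vegfb, Nrp1, Tek, Vegfc and Cdh5 were lower by -0.19 to -0.07 on the log2 scale. Hif1a (0.10) and the Notch ligand Jag1 (0.08) were higher. Angpt2, the other ligand of Tek, did not pass (log2 fold change -0.06, SE 0.06, adjusted p = 0.52). The test of genotype by sex in sedentary mice passed for 0 members and 0 genes with edgeR and 0 members with DESeq2 and limma voom, and 4 members had an unadjusted p under 0.05 (8.70% of all genes). Dll4 led these (log2 fold change 0.29, SE 0.10, p = 0.0031, adjusted p = 0.4, females minus males).

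The 109 other pathway genes had 13 higher and 4 lower in sedentary TG males, beside 9.39% and 11.2% of all genes. In either direction 17 of 109 passed, a share not above the 20.6% of all genes. Without sedentary TG male replicate 5 there were 11 higher and 1 lower, beside 1431 and 1443 of all 16913 genes. In trained males 6 of 109 passed, in sedentary females 3 and in trained females 8, beside 14.0%, 4.37% and 14.8% of all genes, and these shares were not above those of all genes either. Cd34, a sialomucin of endothelial and stromal progenitor cells, rose (log2 fold change 0.38, SE 0.07, adjusted p = 2.4e-05), as did the lymphatic and macrophage receptor Lyve1 (log2 fold change 0.75, SE 0.15, adjusted p = 0.00026). The junction proteins Jam2 (log2 fold change -0.23, SE 0.06, adjusted p = 0.0046) and Tjp1 (log2 fold change -0.09, SE 0.03, adjusted p = 0.023) were lower. Their surface and junction list had 2 genes lower in sedentary males, and 1 without sedentary TG male replicate 5. In trained males 2 were higher and 4 lower: Rbpj (0.16) and Ednrb (0.32) rose, and Bmp6 (-0.29) and the caveolar protein Cavin2 (-0.14) fell most clearly. In sedentary females 1 was higher (Ets2, 0.16) and 2 lower (Cavin2, -0.17, and Jam2, -0.21). In trained females 5 were higher, led by Cd34 (0.26) and Smad1 (0.21), and 3 lower, led by Cavin2 (-0.17) and Jam2 (-0.25).

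Markers of other cells differed between the genotypes too. In sedentary males, 9 of 10 fibroblast markers and 10 of 10 macrophage markers were higher in TG mice, 4 of 12 capillary markers (Cd36, Aqp1, Aqp7 and Timp4) were lower, and of 10 cardiomyocyte markers 6 were lower and 1, Myh7, was higher. Without sedentary TG male replicate 5 these counts were 8 fibroblast and 10 macrophage markers higher, 3 capillary markers lower, and 6 cardiomyocyte markers lower and 2 higher. The summed fibroblast level ranged from 1903 to 2756 CPM (median 2094) in nTG and from 2231 to 3136 CPM (median 2987) in TG sedentary males, and the summed macrophage level from 186 to 254 CPM (median 219.96) and from 248 to 417 CPM (median 345). Trained TG males had 6 of 10 fibroblast and 7 of 10 macrophage markers higher, sedentary TG females 1 and 0, and trained TG females 5 and 8. Of 8 blood genes, 5 were lower in trained TG males and 1 in trained TG females, with 1 higher in sedentary TG males and 0 called in sedentary females. Without replicate 5, 0 blood genes were called in sedentary males. Of 10 cardiomyocyte markers, 3 were lower and 1 higher in trained TG males, 2 and 1 in sedentary TG females, and 5 and 1 in trained TG females. Capillary markers were lower for 1 of 12 in trained males (Aqp1), 0 in sedentary females and 2 in trained females (Car4 and Aqp7). Of 6 tip cell genes, 2 were higher in trained TG males and 1 each in sedentary TG males and trained TG females, with 0 called in sedentary females and 0 lower in each comparison. Of 6 lymphatic genes, 2 were higher and 1 lower in sedentary males and 1 lower in trained females. Without sedentary TG male replicate 5, the lymphatic counts in sedentary males were 2 higher and 0 lower. Venous genes had 1 of 5 higher in trained males, and arterial genes 0 of 9 called in each comparison. Endocardial genes had 1 of 6 lower in sedentary males, and 0 without sedentary TG male replicate 5. Of 8 proliferation genes, 1 was higher and 1 lower in sedentary males, 0 passed in trained males, 1 was lower in sedentary females, and 2 were higher and 1 lower in trained females. Of the 11 mural markers, which include the pericytes around capillaries, Abcc9 was lower in all 4 comparisons (-0.31, -0.22, -0.21 and -0.40) and no other one passed. The part of these cells in the genotype differences of the endothelial genes was not tested.

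**Figure D4:**
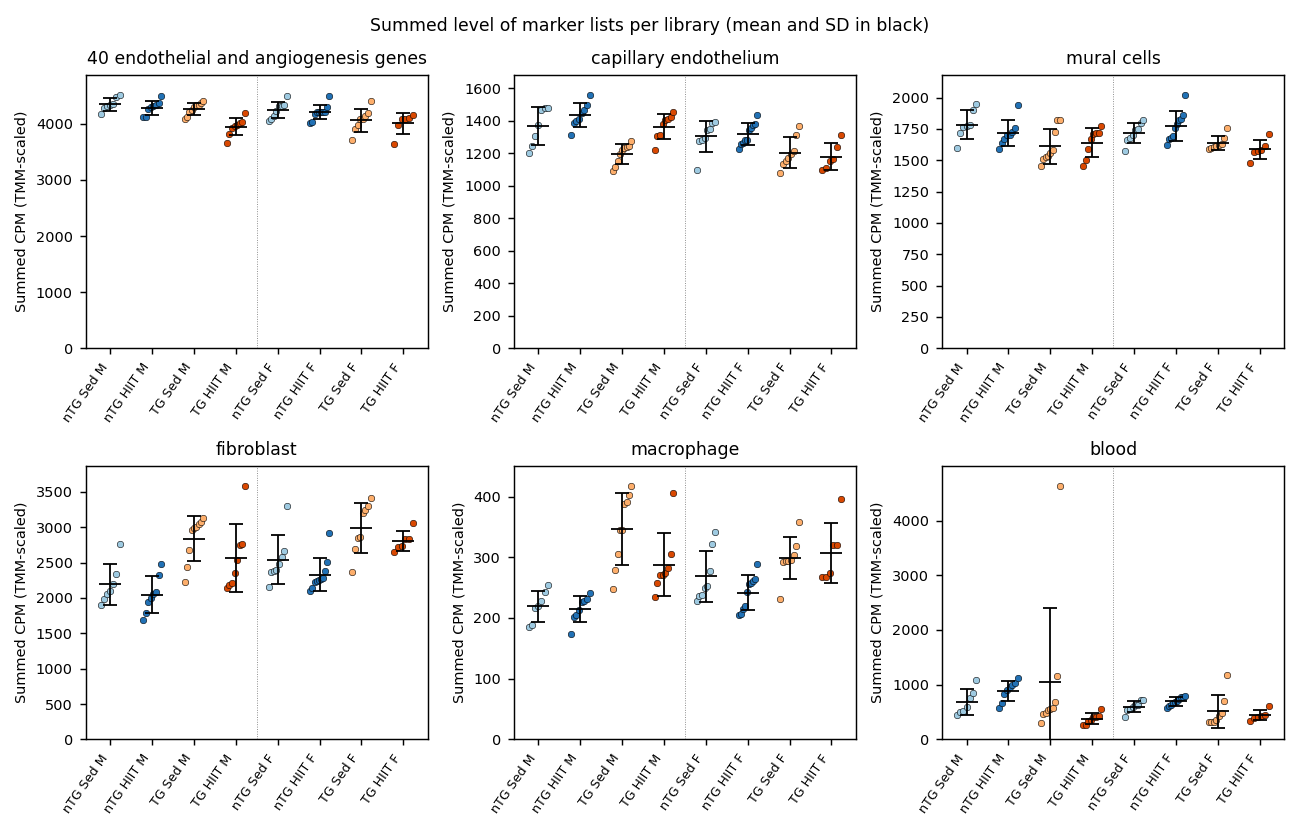
Summed level of the 40 genes and of 5 marker lists (vertical axes, summed CPM with TMM-scaled library sizes, from 0) in each library of the 8 groups (horizontal axes), with mean and SD in black; the lower SD bar of blood in sedentary TG males is cut off at 0. The sum of the 40 genes has its lowest male median in trained TG males (3971 CPM, against 4297 CPM in sedentary TG males), and 1 sedentary TG male stands apart in blood genes at 4629 CPM.

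Between the sexes, in sedentary nTG mice, 0 members passed with edgeR and DESeq2 and 2 with limma voom (2.22% of all genes with edgeR), and 6 had an unadjusted p under 0.05 (15.2% of all genes). Dll4 ranged from 33.4 to 42.7 CPM (median 38.9) in males and from 28.9 to 36.1 CPM (median 32.4) in females, with overlap (log2 fold change -0.22, SE 0.07, p = 0.0026, adjusted p = 0.079, females minus males). Vwf ranged from 94.8 to 139 CPM (median 109.5) in males and from 96.99 to 245 CPM (median 139) in females (log2 fold change 0.49, SE 0.16, p = 0.0028, adjusted p = 0.081).

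Within groups, the endothelial genes varied with Pecam1 only in part. Pecam1 itself varied least of the members within groups (SD of log2 CPM 0.065), and relations among the other members were not computed. Deviations of log2 CPM from the group means were correlated with those of Pecam1 over the 64 libraries, for all 16912 other genes, with 100000 permutations within groups. The median r was 0.17 for the 39 members and -0.01 for all genes, and 29 of 39 were above 0. With p adjusted over all genes, 1 member passed, against 0.568% of all genes. That was Tek, the angiopoietin receptor (r = 0.498, rho = 0.474, permutation p = 0.00013 and 0.0004, adjusted p = 0.036 for r). Without the 2 libraries farthest from the median of Pecam1 its r was 0.461, and it was 0.43 in the 32 male and 0.573 in the 32 female libraries. Flt4, the receptor of Vegfc, was next (r = 0.45, rho = 0.409, permutation p = 0.00032 and 0.0015, adjusted p = 0.052; 0.392 without the 2 libraries). The lowest values were those of the ligands Vegfb (r = -0.287, rho = -0.234, permutation p = 0.037 and 0.073, adjusted p = 0.29) and Angpt1 (r = -0.224, rho = -0.189, permutation p = 0.084 and 0.15, adjusted p = 0.41), while the ligands Jag1 (r = 0.404) and Angpt2 (r = 0.214) were above 0. All genes of a library share its depth.

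**Figure D5:**
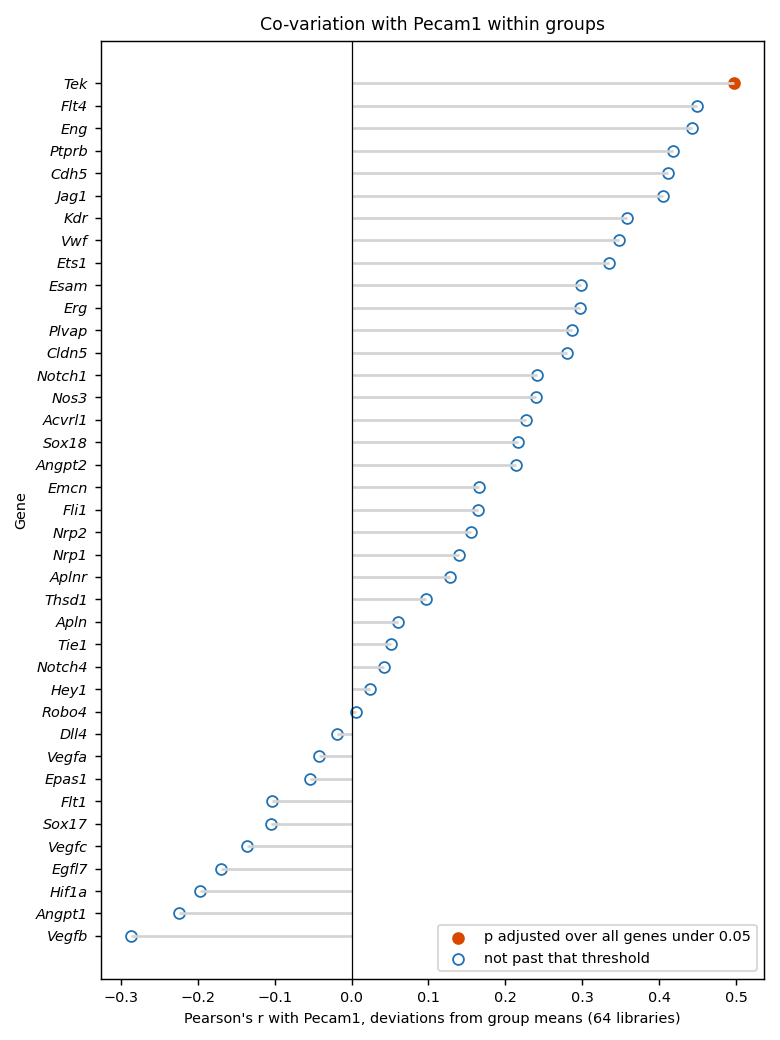
Pearson's r (horizontal axis) between Pecam1 and each of the other 39 genes (vertical axis, sorted), computed on deviations of log2 CPM from group means over 64 libraries; filled points have a permutation p adjusted over all genes under 0.05. Tek has the highest r, 0.498, and Vegfb and Angpt1 have the lowest, -0.287 and -0.224.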

How the data were processed

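RNA of mouse hearts was sequenced as total RNA after depletion of ribosomal RNA, per the labels' protocols. The authors deposited whole-number counts for 16913 genes and expected counts (estimated counts that need not be whole, of the kind RSEM gives) for 3787 lncRNA transcripts. The submitters' processing notes name cutadapt 2.3, FastQC 0.11.8, MultiQC 1.7, STAR 2.7.8a and RSEM 1.3.3 and the builds GRCm38 and mm10. Whether counting used strand is not given in the sources used here, so reads of overlapping antisense genes cannot be told apart. Symbols and positions came from GENCODE M21 on GRCm38, which matched 16879 identifiers.

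Gene columns were joined to lncRNA columns by Pearson's r of centred log2 CPM (pseudocount 0.5) over 389 autosomal transcripts with a mean of at least 20 counts in both tables, none of them a member. All 64 pairs were mutual best matches, and 1 pair had the same name. A minimum of 50 counts (159 transcripts) or Spearman's correlation gave the same 64 pairs. The lncRNA values served only for this.

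Counts were tested with edgeR 4.0.16 (quasi-likelihood F test, TMM scaling, filterByExpr, which kept all genes) in 1 fit of the 8 groups, with Benjamini-Hochberg adjustment over all genes and a threshold of 0.05. CPM used TMM-scaled library sizes, except in the label check, which used plain totals. The SE is the fold change divided by the square root of F. Alternatives were DESeq2 1.42.0, limma 3.58.1 voom with sample weights, median-of-ratios scaling, no filter, fits of only the groups compared, the replicate number as a block, columns by name, and leaving out each library, in R 4.3.3. Counts of list genes without 1 library high in blood genes were added after seeing the data. Correlations with Pecam1 used log2 CPM with a pseudocount of 0.5 and were added after other results were seen.

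The members and all gene lists were chosen with earlier results of these data known. Values per library are given for members past the threshold, taking the 3 with the smallest p in each direction and comparison, 10 in all. Where none passed, the 2 with the smallest p are named. Pecam1, Kdr, Vegfa, Apln and Aplnr are shown for their role, after their values were seen. Of the 110 pathway genes listed, 109 were in the table, and the 2 rising and 2 falling with the smallest adjusted p are named per comparison.

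On simulated counts for training in TG males over 16913 genes, edgeR recovered 21.4% of 70 genes changed by 0.25 log2 units. It recovered 62.9% of 70 genes at 0.5 and 90% of 60 genes at 1, with 8 false calls among 121. In the data 18.0% of genes passed, so the simulated shares do not carry over to it. Precision is limited by the spread between libraries, and the counts carry no molecular identifiers that the sources mention.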

Additional observations from a re-analysis of the deposited data

Results flagged for a closer look

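In 6 cases a value stood far from the other libraries of their group, in 120 groups examined (15 genes in 8 groups). Chance alone is expected to give 6. Angpt1 was 38.6 CPM in sedentary nTG male replicate 4, while the other 6 animals lay between 14.8 and 20.8 CPM. Vegfb was 288.7 CPM in sedentary TG female replicate 4, against 164.3 to 203.5 CPM in the rest of its group. Ptprb was lowest in sedentary nTG female replicate 4, at 252.7 CPM beside 274.9 to 294.4 CPM. Sox18 was 89.0 CPM in sedentary TG male replicate 6 (others 66.4 to 77.8 CPM) and 45.3 CPM in trained TG female replicate 6 (others 59.8 to 66.4 CPM). Apln was 25.7 CPM in trained nTG male replicate 1 (others 15.2 to 19.4 CPM).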

How the results depend on the processing

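Of 41 calls of members, DESeq2, limma voom and the unfiltered fit kept 41 each, median-of-ratios scaling 40, the replicate block 38 and fits of only the groups compared 35. With gene columns by their own names, 0 were kept, and the counts of members called were 0 for training in TG males, for the 4 genotype comparisons and for their mean, and 4 (all lower) for training in nTG mice over the sexes. By name the sign turned for 17 calls: in the training of TG males Thsd1 0.063 and Vwf 0.10; between genotypes in sedentary males Dll4 0.081, Epas1 0.029, Ptprb 0.014 and Thsd1 -0.038; in trained males Cdh5 0.027, Epas1 0.069, Flt1 0.034, Ptprb 0.011 and Vegfb 0.079; in trained females Epas1 0.059, Flt1 0.00049 and Ptprb 0.041; in the genotype mean Cdh5 0.0091, Epas1 0.034 and Hif1a -0.034 (log2 fold changes). By name 45 of 64 libraries contradict their labels. The genotype count in sedentary females was 1 in a fit of only its groups. The difference in training between TG females and males was 1 with DESeq2 and 1 with limma voom. Training in TG mice over the sexes gave 6 with DESeq2, 8 with limma voom and 1 with the replicate block, and the sex comparison gave 2 with limma voom. The cause of these shifts was not tested. Leaving out 1 library gave 7 to 19 members for training in TG males, 3 to 6 and 1 to 5 for genotype in sedentary males and trained females, 0 to 3 for the sex difference in training (3 without trained TG female replicate 6), 0 to 8 for training in TG mice over the sexes and 0 to 2 for the sex comparison (2 without sedentary nTG male replicate 5). The genotype count in trained females was 1 without trained TG female replicate 4 and 3 without replicate 3 or 6. Other counts stayed within 1.5 times.

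The deviations of same-numbered libraries of different groups had a median r of 0.022 over 205 pairs, 65 of them above 0.1. Pairs of different numbers had a median r of -0.00064 over 1582 pairs, 448 of them above 0.1. Same-numbered libraries thus did not deviate together in the median. Whether some of them share more than a number was not tested. The replicate block lost Notch1 and Vwf for training in TG males and Vegfb for genotype in trained females, and kept the other 38 of the 41 calls. It added 1 member for training in TG mice over the sexes. The simulation changed far fewer genes than passed in the data, so its recovery of 21.4% at 0.25 log2 units does not give the power for these members. Members that did not pass may still differ.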
